A study of Mus musculus with 12 samples.

Results

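The potassium channel genes of EDL (the extensor digitorum longus of the hindlimb, built mostly of fast fibers) are described here across the groups of a mouse training study. A gene was included when its symbol in the deposited table starts with Kcn and its mean over the 12 libraries was at least 0.1 FPKM (fragments per kilobase of transcript, scaled for the depth of the library). Kcnk1, a leak channel, was left out by name. Of 68 Kcn genes in the table, 15 fell under this minimum, and 52 of the table's 17752 genes were described. The members nearest to the minimum were Kcnj15 with a mean of 0.105 FPKM and Kcnk13 with 0.109 FPKM, while Kcnd1 with 0.0937 FPKM and Kcnab3 with 0.0898 FPKM fell just outside it.

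Potassium channels let potassium ions cross the cell membrane along their gradient. In a muscle fiber, inward rectifiers and leak channels hold the resting potential, and voltage-gated channels end each action potential. ATP-sensitive channels open when the fiber's energy supply falls, and calcium-activated channels open when calcium rises. The pores are built from alpha subunits, and smaller partner proteins alter how fast they open, how long they pass current and how many reach the membrane.

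EDL RNA of male mice was measured in 4 groups of 3 libraries: WT sedentary, strNrip1-/- sedentary, WT trained and strNrip1-/- trained. The strNrip1-/- mice carry floxed Nrip1 alleles (Nrip1 fl/fl, made in C57BL/6J) and a Cre recombinase under the muscle creatine kinase (MCK) promoter, which is active in heart and skeletal muscle fibers, so that other cells of the muscle keep the gene. The WT mice are littermates without Cre and share the floxed parentage. Nrip1 encodes RIP140, a transcriptional coregulator. Trained mice had running wheels in their cages from 8 weeks of age for 8 weeks, with mice that ran little removed from the study, and sedentary mice had none. Per the study's methods, the wheels were taken out ahead of exercise tests or other testing endpoints.

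Nrip1 itself was higher in the libraries labelled strNrip1-/-. Its level was 3.33 ± 0.689 FPKM in WT sedentary and 15.5 ± 0.680 in strNrip1-/- sedentary libraries (mean ± SD, n = 3), and 3.62 ± 1.12 and 17.4 ± 3.02 FPKM in the trained libraries. A gene-level value does not separate the deleted exon from those that remain. Why the level went against the label, an exchange of the labels included, was not tested. All genotype comparisons below are therefore between libraries labelled strNrip1-/- and libraries labelled WT. As estimated from the smallest steps in its values, the depth by which a library was scaled was 20500000 to 29200000 fragments. For a transcript of 2 kb, 3 fragments are then 0.0623 to 0.0907 FPKM. Markers of fast fibers dominated every library (summed FPKM 114421 to 182167, against 116 to 722 for slow-fiber markers), the markers of the labelled muscle. Whole muscle was measured, so fewer cells of a type and less RNA per cell cannot be told apart.

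Before the values, 3 stretches of upstream sequence are shown because their genes, Kcng4, Kcne1l and Kcnj3, were higher in strNrip1-/- libraries in both training states and have an upstream window in RefSeq. Kcng4 encodes a modifier subunit that forms no channel alone and alters the channels of other subunits. Kcne1l, on the X chromosome, encodes a single-pass partner of voltage-gated channels. Kcnj3 encodes a subunit of the inward rectifiers opened by G proteins. Each line gives the bases that end just before the transcript start in GRCm38.p6 coordinates, written from 5′ to 3′ on the gene's strand, with the letters CAGCTG in capitals.
Kcng4, chr8:119635681-119635930, minus strand: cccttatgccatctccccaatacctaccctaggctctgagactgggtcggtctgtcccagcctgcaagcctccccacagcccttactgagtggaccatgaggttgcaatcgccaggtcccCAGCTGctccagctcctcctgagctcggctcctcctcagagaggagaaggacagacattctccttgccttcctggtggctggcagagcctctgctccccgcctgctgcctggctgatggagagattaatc
Kcne1l, chrX:142306295-142306448, minus strand, cut where the GENCODE transcript begins: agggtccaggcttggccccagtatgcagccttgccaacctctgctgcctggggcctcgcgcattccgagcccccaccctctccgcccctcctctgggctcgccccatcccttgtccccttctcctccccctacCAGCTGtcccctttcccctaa
Kcnj3, chr2:55435720-55435969, plus strand: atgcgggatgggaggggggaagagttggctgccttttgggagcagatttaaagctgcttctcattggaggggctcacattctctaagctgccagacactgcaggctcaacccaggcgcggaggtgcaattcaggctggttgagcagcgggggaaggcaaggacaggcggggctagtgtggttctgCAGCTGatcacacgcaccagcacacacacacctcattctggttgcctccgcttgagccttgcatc

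The motif CAGCTG, 1 form of the E-box CANNTG that myogenic helix-loop-helix factors bind, occurred once in each of these 3 windows and at no shared distance. It lay at -130 bases from the RefSeq start in Kcng4, -117 in Kcne1l and -65 in Kcnj3. It was picked after these windows had been read. Among all 32851 RefSeq windows of the same length (250 bases before and 50 after the start, both strands searched), 16.3% held it, against 15 of the 52 windows that belong to members (28.8%). The members with the motif in a window numbered 13 of 39, and they included Kcna5, Kcnj2, Kcnk4, Kcnn1 and Kcnk2, none of which was called in a genotype comparison. Kcnab1, Kcnq5, Kcnj8 and Kcnma1, which were called, have windows without it. The wider motif CANNTG, which includes CAGCTG, was present in 72.3% of all windows and 42 of 52 member windows (80.8%). The nuclear receptor half-site AGGTCA was present in 16.3% of all windows and in 2 member windows (3.85%), and its extended form TNAAGGTCA in 1.28% of all windows and in 0 of 52. Kcnj11 has no entry.

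The 52 genes spanned a mean of 0.105 to 71.5 FPKM with a median of 0.478 FPKM. Only 7 reached 10 FPKM and 11 reached 5 FPKM. Kcna7, a voltage-gated channel of striated muscle, was the most abundant with a mean of 71.5 FPKM. It was followed by Kcnj11, the pore of the ATP-sensitive channel (51.8), by Kcnc4 (45.8) and Kcnc1 (24.8), fast-opening voltage-gated channels, and by Kcnj12, a strong inward rectifier (22.8). These 5 genes held 62.9 to 74.4% of the summed FPKM of all members in a library. That sum was 307 ± 6.75 FPKM in WT sedentary, 298 ± 14.0 in strNrip1-/- sedentary, 306 ± 7.54 in WT trained and 327 ± 10.5 in strNrip1-/- trained libraries. Members were sorted into classes by symbol. Voltage-gated alpha subunits were the largest class with 20 genes, followed by 10 calcium- or sodium-activated channels and their partners. There were 8 partners of voltage-gated channels, 7 inward rectifiers and 7 leak channels of the 2-pore-domain family.

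**Figure D1:**
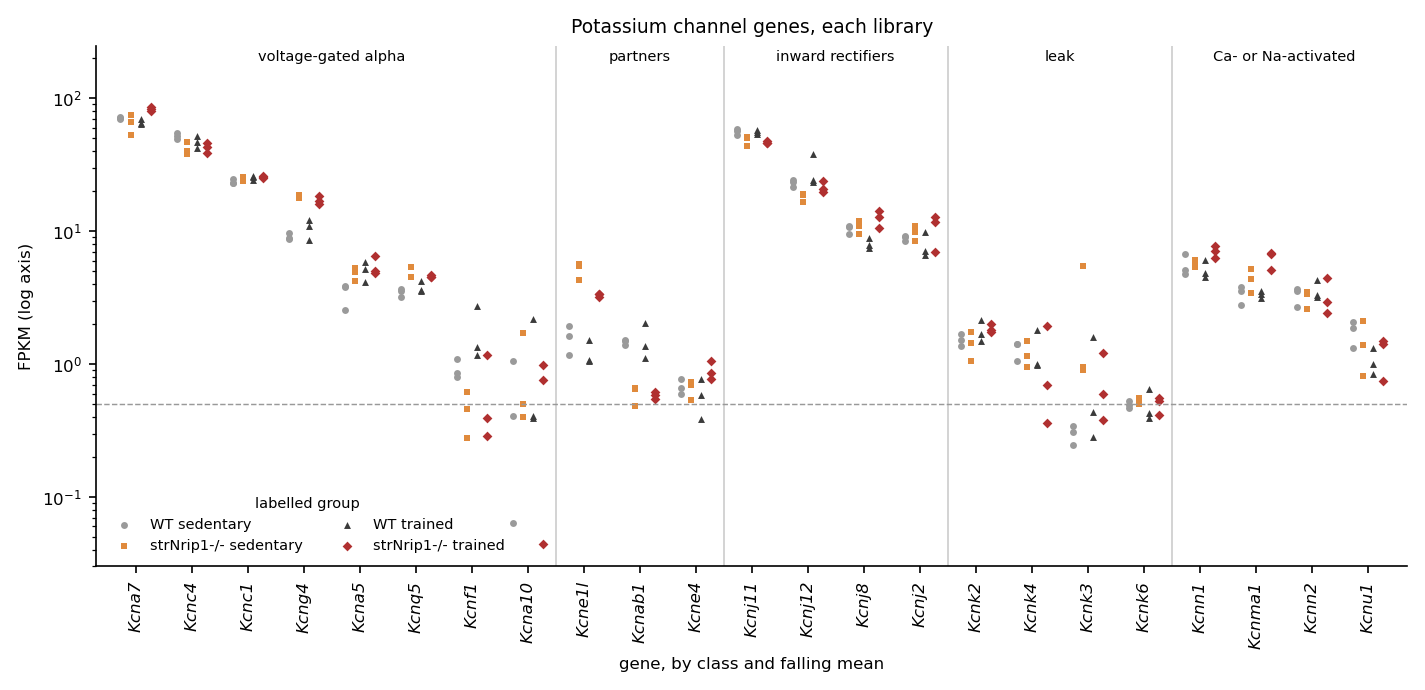
FPKM on a log axis of potassium channel genes that average 0.5 FPKM or more, 1 point per library, grouped by class and ordered by mean. The dashed line marks 0.5 FPKM. Kcna7, Kcnj11 and Kcnc4 lie highest in every group, and the libraries of a group lie closer together for these genes than for Kcnk3, Kcnf1 or Kcna10 near the line.

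Differences between groups were tested with limma on log2(FPKM + 0.5) for genes averaging 0.5 FPKM or more, 12744 in all, fitted in all 12 libraries, with p-values adjusted over all genes (Benjamini-Hochberg). A gene is called when its adjusted p is under 0.05 and its fold change above 1.2. Fold changes are on that scale and understate the change of low genes. Of the 52 members, 26 passed this filter and 26 did not. The 26 lower members were tested in a second fit with a minimum of 0.1 FPKM, which took in 15713 genes.

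In sedentary mice, 4 potassium channel genes were higher in strNrip1-/- than in WT libraries and 2 were lower. Kcng4, Kcnq5 and Kcne1l were among the higher genes and Kcnab1 among the lower ones. This was 6 of 26 members (23.1%), where 3.51% of all genes tested were called, 1.92% higher and 1.59% lower. In trained mice, 5 members were higher, among them Kcng4, Kcne1l, Kcnj8 and Kcnma1, and 2 were lower, among them Kcnab1. These were 7 of 26 members (26.9%), beside 5.98% of all genes, 3.21% higher and 2.77% lower. Kcng4, Kcne1l and Kcnab1 were called in both. The median log2 fold change over the 26 members was 0.00 in sedentary and 0.05 in trained mice, beside 0.00 and 0.01 over all genes. The sedentary and the trained comparison use different libraries but share 1 estimate of the spread.

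**Figure D2:**
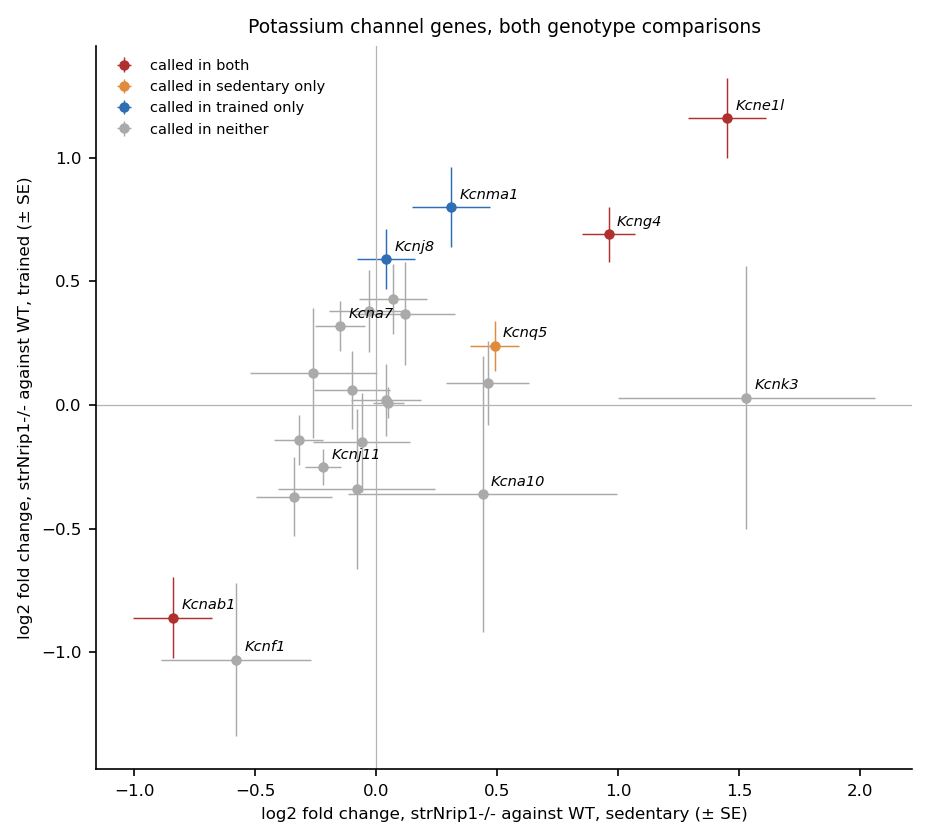
Log2 fold change of strNrip1-/- against WT libraries in sedentary mice (horizontal axis) and trained mice (vertical axis) for genes tested, with standard errors as bars. Kcne1l and Kcng4 lie at upper right (called higher in both) and Kcnab1 at lower left (called lower in both), while Kcnk3 has a wide error at a sedentary value of 1.53.

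Among the voltage-gated alpha subunits, 11 of 20 were tested, and 3 rose and 1 fell in sedentary mice, 2 rose and 1 fell in trained mice. Kcng4 (chr8:119623854-119635680, GRCm38, minus strand), the modifier subunit whose upstream sequence is shown above, was the sixth most abundant member. Its level was 9.68, 8.72 and 8.85 FPKM in WT sedentary libraries and 18.2, 18.6 and 17.7 FPKM in strNrip1-/- sedentary libraries. In trained mice it was 12.1, 10.9 and 8.55 FPKM in WT and 18.3, 16.1 and 16.9 FPKM in strNrip1-/- libraries. Every strNrip1-/- library lay above every WT library. The log2 fold change was 0.96 (1.95-fold, SE 0.111, limma adjusted p = 0.00101) in sedentary mice and 0.69 (1.61-fold, adjusted p = 0.00526) in trained mice. Both calls held with any 1 library left out.

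Kcnq5, a slowly opening voltage-gated channel that sets excitability at rest and is known from brain and skeletal muscle, measured 3.20, 3.57 and 3.69 FPKM in WT sedentary and 5.39, 4.56 and 5.38 FPKM in strNrip1-/- sedentary libraries. In trained mice the ranges were 3.54 to 4.23 FPKM in WT and 4.49 to 4.65 FPKM in strNrip1-/- libraries, again without overlap. The log2 fold change was 0.49 (SE 0.101, limma adjusted p = 0.0230) in sedentary and 0.24 (adjusted p = 0.198) in trained mice. The sedentary call was lost without any 1 WT sedentary library and without strNrip1-/- sedentary replicate 1 or 3, when only the sedentary groups were fitted (adjusted p = 0.107) and with the libraries scaled to the same FPKM sum of nuclear genes (0.0617) or of all genes, which gave the highest adjusted p of all alternatives, 0.196.

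Kcnc1 and Kcnc4, the abundant fast-opening channels, were not called. Kcnc1 stayed between 23.0 and 26.2 FPKM in all 12 libraries (log2 fold change 0.05 and 0.01). Kcnc4 had a mean of 52.1 ± 2.43 FPKM in WT sedentary and 41.7 ± 4.84 in strNrip1-/- sedentary libraries (log2 -0.32, limma adjusted p = 0.123).

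Kcna7, the most abundant member, stood out in 1 group only. Its level was 71.2, 72.8 and 70.1 FPKM in WT sedentary, 74.8, 65.9 and 53.3 in strNrip1-/- sedentary, 65.3, 70.4 and 64.5 in WT trained and 83.2, 79.9 and 86.6 in strNrip1-/- trained libraries. The last group lay above the other 9 libraries. Its log2 fold change was 0.32 in trained mice (SE 0.102, limma adjusted p = 0.0967) and -0.15 in sedentary mice (adjusted p = 0.532), and the interaction was 0.47 (SE 0.145, adjusted p = 0.561), so no difference passed. The trained difference was called with strNrip1-/- sedentary replicate 3 left out and under each of 3 scalings to a common sum.

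Kcna5, a delayed rectifier known from heart and vessels, measured 2.57 to 3.84 FPKM in WT sedentary libraries, below the other 9 (4.18 to 6.56 FPKM). No contrast of it was called, except that the sedentary genotype difference (log2 0.46, limma adjusted p = 0.196) was called with the same fast-fiber sum (0.73, adjusted p = 0.0126), a scaling that raised the median of all genes as given for Kcnj11 below. Kcnf1, a silent modifier subunit like Kcng4, was 1.34, 2.72 and 1.17 FPKM in WT trained and 0.391, 0.288 and 1.17 FPKM in strNrip1-/- trained libraries. Its log2 fold change of -1.03 (SE 0.309) missed the threshold (limma adjusted p = 0.0782), and passed it without strNrip1-/- trained replicate 3 (adjusted p = 0.0349). Kcna10 varied within groups, from 0.0635 to 1.06 FPKM among WT sedentary libraries alone, and was not called.

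Partner proteins of voltage-gated channels contributed 3 tested genes, of which 1 rose and 1 fell in both states. Kcne1l (chrX:142304752-142306294, minus strand) showed the largest fold change of any tested member past the threshold in sedentary mice. It measured 1.63, 1.92 and 1.17 FPKM in WT sedentary and 4.30, 5.47 and 5.66 FPKM in strNrip1-/- sedentary libraries. In trained mice it was 1.07, 1.52 and 1.06 FPKM in WT and 3.18, 3.35 and 3.38 FPKM in strNrip1-/- libraries. The genotypes did not overlap, and the strNrip1-/- sedentary libraries were above the other 9. The gene was 2.74-fold higher in sedentary (log2 1.45, SE 0.161, limma adjusted p = 8.47e-04) and 2.23-fold higher in trained mice (log2 1.16, adjusted p = 0.00240), and both calls held in every alternative fit that tested it. Within strNrip1-/- mice it was lower after training (log2 -0.56), which did not pass the correction (limma adjusted p = 0.242).

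Kcnab1 (chr3:65109384-65378223, plus strand) encodes a cytoplasmic partner that speeds the inactivation of voltage-gated channels. Its level was 1.52, 1.39 and 1.49 FPKM in WT sedentary against 0.650, 0.666 and 0.486 FPKM in strNrip1-/- sedentary libraries. In trained mice it was 1.12, 2.03 and 1.37 FPKM in WT and 0.550, 0.614 and 0.585 FPKM in strNrip1-/- libraries. All 6 strNrip1-/- libraries lay below all 6 WT libraries. The gene was 1.79-fold lower in sedentary (log2 -0.84, SE 0.163, limma adjusted p = 0.0176) and 1.82-fold lower in trained mice (log2 -0.86, adjusted p = 0.0114). The sedentary call was lost without any 1 WT sedentary library or without strNrip1-/- sedentary replicate 3, with a highest adjusted p of 0.0780, and the trained call when only the trained groups were fitted (adjusted p = 0.0629). Kcne4, the third partner tested, was not called. Of the partners under the filter, Kcne3, Kcnab2, Kcnip2 and Kcnip3 were not called in the fit that included them.

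**Figure D3:**
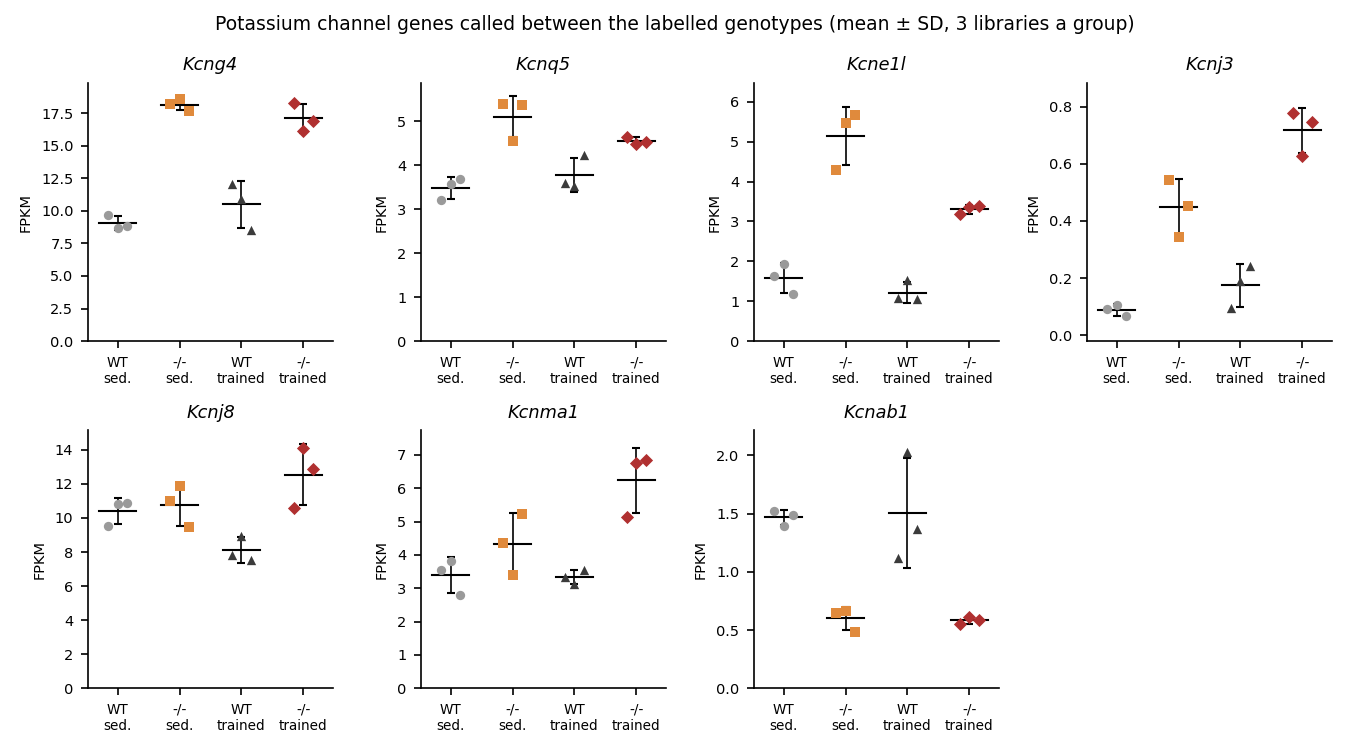
FPKM in each library of 6 genes called in the test of 26 members and of Kcnj3, by labelled group (sed., sedentary; -/-, strNrip1-/-), with the mean as a line and the SD of 3 libraries as a bar, and every axis including 0. The strNrip1-/- libraries lie above the WT libraries in both states for Kcng4, Kcnq5, Kcne1l and Kcnj3 and below them for Kcnab1.

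Of 7 inward rectifiers, 4 were tested, and Kcnj8 alone among them was called, in trained mice. Kcnj8 is the pore of the ATP-sensitive channel of vascular smooth muscle and pericytes. It measured 7.85, 8.96 and 7.52 FPKM in WT trained and 10.6, 14.1 and 12.9 FPKM in strNrip1-/- trained libraries (1.51-fold, log2 0.59, SE 0.121, limma adjusted p = 0.0168). In sedentary mice the genotypes overlapped, with 9.55 to 10.9 FPKM in WT and 9.46 to 11.9 FPKM in strNrip1-/- libraries (log2 0.04, adjusted p = 0.915). The interaction was 0.55 (SE 0.171, limma adjusted p = 0.561). The trained call was lost without WT trained replicate 1 or 3 or strNrip1-/- trained replicate 2 or 3, with a highest adjusted p of 0.0722, and when only the trained groups were fitted.

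Most vascular markers had a higher mean in strNrip1-/- trained than in WT trained libraries, but few were called. The share of all genes tested that were called there was 5.98%. Of 10 endothelial markers tested 1 was called higher (Tie1, log2 0.42, a call lost in 3 alternative fits) and none lower. Of 9 smooth muscle and pericyte markers, Pdgfrb was higher (log2 0.51). Lmod1, a smooth muscle gene, was lower (log2 -0.67), a call lost in 8 alternative fits. Of the 7 not called, Cnn1 alone had a lower mean in strNrip1-/- trained than in WT trained libraries (log2 -0.38). The others had a higher mean. Cspg4 was 2.22 to 2.71 FPKM in WT trained and 3.31 to 3.39 FPKM in strNrip1-/- trained libraries. The median log2 fold change of the 9 was 0.15. The summed level of the 9 smooth muscle and pericyte markers was 135 to 165 FPKM in WT trained and 157 to 174 FPKM in strNrip1-/- trained libraries, and that of the 10 endothelial markers 144 to 164 and 178 to 185 FPKM. In sedentary mice the sums were 138 to 142 and 150 to 172 FPKM for the first list and 158 to 165 and 169 to 203 FPKM for the second. The smooth muscle and pericyte sums overlapped between the trained groups. The other sums given here did not overlap between the genotypes and were higher in strNrip1-/- libraries. No gene of these lists was at 0 in a library. Their part in the Kcnj8 difference was not tested.

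Kcnj11, the pore of the ATP-sensitive channel of the fiber itself, was lower in all 6 strNrip1-/- libraries than in all 6 WT libraries, by a small step. Its values were 58.7, 53.3 and 56.8 FPKM in WT sedentary, 50.4, 51.3 and 43.6 in strNrip1-/- sedentary, 53.5, 56.0 and 57.6 in WT trained and 47.5, 46.5 and 46.3 in strNrip1-/- trained libraries. The log2 fold changes were -0.22 (SE 0.0728, limma adjusted p = 0.15) and -0.25 (adjusted p = 0.0715), and neither was called. The first was called with the same FPKM sum in every library (adjusted p = 0.0410) and the second after quantile normalization (adjusted p = 0.0233). Abcc9, which encodes the regulatory partner of these pores, had a mean of 32.3 ± 2.01 FPKM in WT sedentary, 26.1 ± 2.91 in strNrip1-/- sedentary, 34.1 ± 0.231 in WT trained and 28.0 ± 0.990 in strNrip1-/- trained libraries, and was not called either (limma adjusted p = 0.0731 and 0.0709). Its strNrip1-/- libraries (23.6 to 29.3 FPKM) all lay below its WT libraries (30.0 to 34.3 FPKM). Each Abcc9 difference was called in 3 alternative fits. Over all alternatives its log2 fold change ran from -0.46 to -0.01 in sedentary and from -0.32 to -0.02 in trained mice. The summed fast-fiber markers were 152884 to 169687 FPKM in WT sedentary, 114421 to 153020 in strNrip1-/- sedentary, 150695 to 182167 in WT trained and 132182 to 136822 in strNrip1-/- trained libraries. With every library scaled to the same fast-fiber sum, the Kcnj11 fold changes became 0.08 and 0.01, while the median of all genes shifted to 0.26 and 0.23. The part of the fast fibers in the Kcnj11 difference was not tested.

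Kcnj12 and Kcnj2, the inward rectifiers that hold the resting potential of the fiber, were not called. Kcnj12 ranged from 16.6 to 19.0 FPKM in strNrip1-/- sedentary and from 21.4 to 24.1 FPKM in WT sedentary libraries, a difference of -0.34 on the log2 scale (limma adjusted p = 0.324). Its highest value, 37.9 FPKM, was in WT trained replicate 2, and the next was 24.2 FPKM. Kcnj2 ranged from 6.59 to 12.9 FPKM over the 12 libraries, and its groups overlapped.

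Among the calcium-activated channels, Kcnma1 was called. It encodes the large-conductance channel opened by calcium and depolarization, which is known from smooth muscle and skeletal muscle. It measured 3.34, 3.14 and 3.54 FPKM in WT trained and 5.12, 6.74 and 6.85 FPKM in strNrip1-/- trained libraries (1.74-fold, log2 0.80, SE 0.161, limma adjusted p = 0.0153). In sedentary mice the values were 3.55, 3.83 and 2.79 FPKM in WT and 4.35, 3.41 and 5.23 FPKM in strNrip1-/- libraries, which overlap (log2 0.31, adjusted p = 0.390). The trained call was lost without WT trained replicate 1 or strNrip1-/- trained replicate 2 or 3, with a highest adjusted p of 0.0714. The vascular markers given beside Kcnj8, of which Lmod1 was called lower, apply here too, and their part was not tested. Kcnn1, a small-conductance channel opened by calcium, was 4.50 to 6.12 FPKM in WT trained and 6.28 to 7.78 FPKM in strNrip1-/- trained libraries without being called (log2 0.43, limma adjusted p = 0.103), and was called with the same fast-fiber sum (adjusted p = 0.0254). Kcnn2 was not called, nor was Kcnu1, which is in this class by its symbol alone.

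None of the 4 leak channels tested was called, where 3.51% of all genes were called in sedentary and 5.98% in trained mice. At these shares, none among 4 says little of the class. Kcnk3, an acid-sensitive leak channel known also from brown fat, was 0.344, 0.309 and 0.244 FPKM in WT sedentary and 0.948, 0.901 and 5.47 FPKM in strNrip1-/- sedentary libraries. The groups did not overlap, and 1 library lay far above the other 2 of its group. The log2 fold change was 1.53 with all libraries (SE 0.531, limma adjusted p = 0.168) and 0.84 without strNrip1-/- sedentary replicate 3 (adjusted p = 0.339). Kcnk9, which forms channels with Kcnk3, was highest in the same library (0.724 FPKM), and both genes were second highest in WT trained replicate 1 (1.61 and 0.146 FPKM). With a mean of 0.119 FPKM, Kcnk9 reached the minimum of 0.1 FPKM only through strNrip1-/- sedentary replicate 3. Its peak there is thus not independent of how members were chosen. The 7 adipocyte markers summed to 352 FPKM in strNrip1-/- sedentary replicate 3, the highest of the 12 libraries, but to 335 FPKM in strNrip1-/- trained replicate 3, where Kcnk3 was 1.21 FPKM, and to 223 FPKM in WT trained replicate 1. Over all libraries that sum ranged from 171 FPKM, and its part was not tested.

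Likewise Kcnf1 (2.72 FPKM) and Kcnj12 (37.9 FPKM) were both highest in WT trained replicate 2, which had the highest summed slow-fiber markers, 722 FPKM. In the library with the next highest sum, strNrip1-/- sedentary replicate 1 (433 FPKM), Kcnj12 was at its lowest of all 12 libraries (16.6 FPKM) and Kcnf1 at 0.463 FPKM. Without WT trained replicate 2, the trained genotype difference was -0.73 instead of -1.03 for Kcnf1 on the log2 scale. For Kcnj12 it was -0.15 instead of -0.37, and neither was called. The part of fiber composition was not tested.

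**Figure D4:**
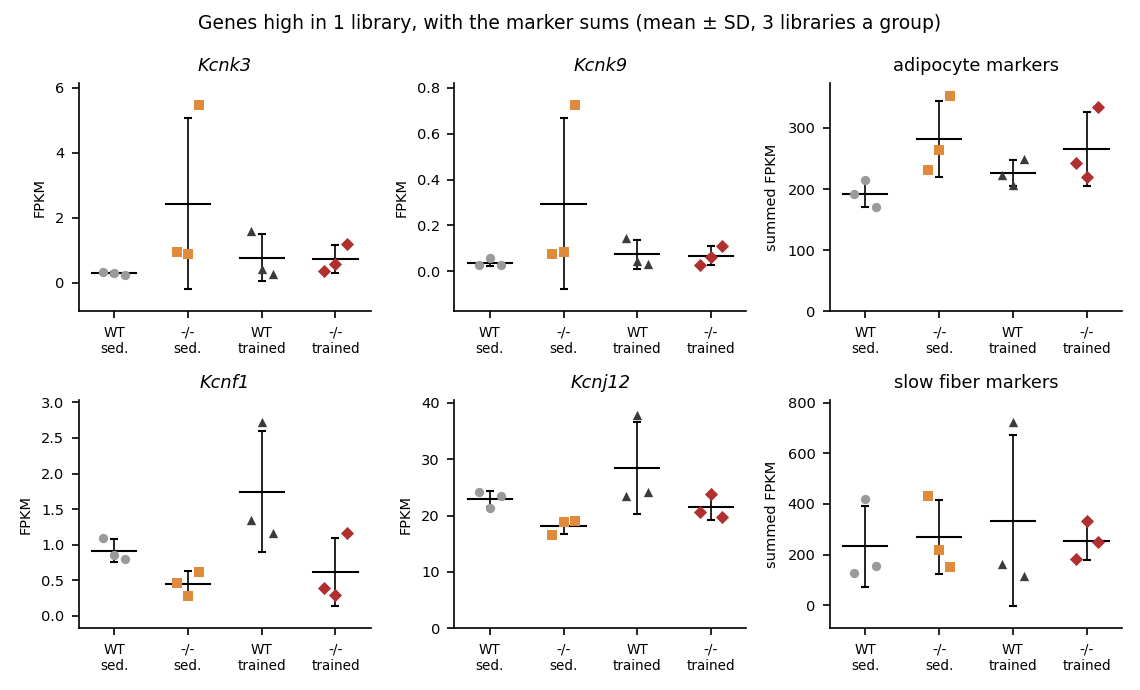
FPKM of Kcnk3, Kcnk9, Kcnf1 and Kcnj12 in each library, with the summed FPKM of the adipocyte and slow-fiber markers, by labelled group (mean as a line, SD of 3 libraries as a bar). Kcnk3 (5.47 FPKM) and Kcnk9 (0.724 FPKM) are highest in the strNrip1-/- sedentary library with the highest adipocyte sum. Without this library Kcnk9 would not reach the minimum of 0.1 FPKM. Kcnf1 and Kcnj12 are highest in the WT trained library with the highest slow-fiber sum.

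The 26 members under 0.5 FPKM were tested in the fit of 15713 genes. There 7 of 52 members were called in sedentary mice (13.5%, against 2.73% of all genes) and 8 of 52 in trained mice (15.4%, against 4.48%). Of the low members, Kcnj3 was called in both states, Kcnh2 in sedentary and Kcnq1 in trained mice. Kcnj3 (chr2:55435970-55598145, plus strand), the G protein-gated subunit known from heart and brain, measured 0.0915, 0.106 and 0.0667 FPKM in WT sedentary and 0.543, 0.345 and 0.454 FPKM in strNrip1-/- sedentary libraries. In trained mice it was 0.0937, 0.189 and 0.241 FPKM in WT and 0.778, 0.629 and 0.745 FPKM in strNrip1-/- libraries, above the other 9. The log2 fold change was 0.68 (SE 0.129, limma adjusted p = 0.0187) in sedentary and 0.86 (adjusted p = 0.00460) in trained mice. The estimated number of fragments behind these values ran from 6.61 to 109 per library. The trained call held with any 1 library left out, and the sedentary call was lost in 4 of 12 such fits.

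Kcnh2, a delayed rectifier known from the heart, was 0.168, 0.237 and 0.227 FPKM in WT sedentary and 0.473, 0.907 and 0.588 FPKM in strNrip1-/- sedentary libraries (log2 0.69, SE 0.161, limma adjusted p = 0.0483), and the call was lost in 10 of 12 fits that left out 1 library. In trained mice its log2 fold change was -0.04. Kcnq1, a slowly opening channel known from the heart, was 0.859, 0.769 and 0.504 FPKM in WT trained libraries, above the other 9, and 0.362, 0.332 and 0.248 FPKM in strNrip1-/- trained libraries (log2 -0.56, SE 0.139, limma adjusted p = 0.0441). That call was lost in 11 of 12 fits. Kcnq1 shares exonic sequence with Kcnq1ot1 on the other strand. Neither the labels nor the study's methods state that strand was kept, and without it reads of such pairs cannot be told apart. The same holds for Kcnab1, Kcnj3, Kcnma1 and Kcnq5, which overlap noncoding genes that have no row in the table, and for Kcnj13 and Kcnh7, which overlap Gigyf2 (12.5 FPKM) and Gca (1.79 FPKM). Kcnj13 was 0.0858 to 0.216 FPKM in WT sedentary libraries, below the other 9, and was not called.

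Counted without a model, 5 of 52 members (9.62%) had all 6 strNrip1-/- libraries above all 6 WT libraries, among them Kcng4, Kcnq5, Kcne1l and Kcnj3. The share among all 15713 genes of at least 0.1 FPKM was 2.56%. In 4 members (7.69%) all 6 lay below, Kcnj11 and Kcnab1 among them, against 2.66% of all genes. No member had its 6 trained libraries all above or all below the 6 sedentary ones, where 0.344% and 0.433% of all genes did.

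Training gave no call in the main test. With a minimum mean of 5 FPKM, 8 of 6849 genes were called in WT and 5 in strNrip1-/- mice. After quantile normalization, 4 genes were called in WT mice. In each of these, 0 members were called. In the test of 12744 genes, 0 (0%) were called by limma between trained and sedentary WT libraries, 0 between trained and sedentary strNrip1-/- libraries and 0 for the interaction of genotype and training, at unadjusted p under 0.05 in 1061, 1544 and 989 genes. With every library scaled to the same FPKM sum, 150 genes were called in strNrip1-/- mice, 143 of them higher, and the median of all genes was 0.16 on the log2 scale. Of the 26 members, 2, 5 and 3 had such an unadjusted p (7.69%, 19.2% and 11.5%, beside 8.33%, 12.1% and 7.76% of all genes). In WT mice these were Kcna5, higher after training by 0.53 on the log2 scale, and Kcnj8, lower by 0.34 (log2 fold change -0.34), with limma adjusted p of 0.464 and 0.492. In strNrip1-/- mice they included Kcnma1 (log2 0.49), Kcna7 (0.37) and Kcne1l (-0.56), with limma adjusted p from 0.236 to 0.286. For the interaction they included Kcna7 and Kcnj8, both positive, as given above.

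On the list of 29 potassium channels known from skeletal muscle, 26 had a row and 17 were tested. In sedentary mice 2 were higher, Kcnq5 among them, 2 lower, Kcnab1 among them, and 13 not called, where 3.51% of all genes were called. In trained mice 3 were higher, Kcnma1 and Kcnj8 among them, 1 lower (Kcnab1) and 13 not called, where 5.98% of all genes were called. The median log2 fold changes were 0.04 and 0.06. Thus Kcng4 and Kcne1l, called in both states, are not on that list. Kcna1, Kcna2, Kcnn3 and Kcnk5 of the list had means under the filter, and Kcnk2 and Kcnk6 were tested without being called.

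The sodium-potassium pump returns the potassium that the channels let out, and 13 genes of the pump and of potassium-coupled transporters were tested. In sedentary mice 2 were higher, Atp1b1 among them, and 1 lower, Atp1b2, where 3.51% of all genes tested were called. In trained mice 5 were higher, among them Atp1b1, Fxyd6 and Slc12a4 (the last lost in 8 alternative fits), and Atp1b2 was again lower. The share of all genes called there was 5.98%. Atp1b2, a beta subunit of the pump, had a mean of 78.6 ± 5.10 FPKM in WT sedentary and 40.1 ± 2.49 in strNrip1-/- sedentary libraries, 87.5 ± 3.46 in WT trained and 44.1 ± 6.98 in strNrip1-/- trained libraries (log2 -0.96 and -0.99, limma adjusted p = 7.10e-04 and 4.71e-04). Atp1b1, the other abundant beta subunit, had 129 ± 13.9, 194 ± 19.8, 122 ± 8.89 and 198 ± 23.8 FPKM in the same order (log2 0.59 and 0.69, adjusted p = 0.0167 and 0.00577). The sedentary call for Atp1b1 was lost in 4 alternative fits.

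Of 12 tested genes for channel partners and other potassium or cation channels outside the Kcn names, Abcb8, a mitochondrial transporter linked to a potassium channel, was higher in both states (log2 0.48 and 0.58, limma adjusted p = 0.00768 and 0.00226). The sedentary Abcb8 call was lost with the same FPKM sum in every library. Tmem38b, a cation channel of the sarcoplasmic reticulum, was lower in trained mice (log2 -0.38, adjusted p = 0.0125), a call lost in 6 alternative fits. Of all genes tested, 3.51% were called in sedentary mice (1.92% higher) and 5.98% in trained mice (3.21% higher). Of 9 sodium, chloride and calcium channel genes of the muscle membrane, none was higher, which so short a list can give at such shares. In sedentary mice 3 were lower, Cacnb1 and Cacng1 among them, and in trained mice Cacng1 and Cacna2d1, with log2 fold changes from -0.29 to -0.49. The calls for these 3 genes were lost in at least 5 alternative fits each, and with the same fast-fiber sum Cacnb1 was 0.01. The median of that list was -0.12 in sedentary and -0.18 in trained mice.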

How the data were processed

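RNA-seq of EDL was deposited as 1 table of 17752 genes. Per the labels and the study's methods, the authors quantified reads with Salmon 1.10.2 on mm10, summarized them to genes and deposited FPKM values for each of 12 libraries. The authors' own log2 fold changes and adjusted p-values from DESeq2 1.44.0 stand in the same table and were not used. Genes were matched to GENCODE M21 (GRCm38) by identifier, 17745 of 17752 and all 68 Kcn genes. The FPKM values were used as deposited. The table holds no counts, so no count model was run; fragments were estimated from whole steps in the FPKM of 1617 genes with 1 transcript (99.1 to 99.8% of low values whole within 0.15). Per-library sums of FPKM ranged from 1030000 to 1320000, and the median ratio to a typical library from 0.99 to 1.01. The deposited values thus appear already scaled to a common median, which holds the median of all genes near 0. The estimated depth is that of this scaling and may differ from the fragments sequenced.

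Tests used limma 3.58.1 in R 4.3.3 on log2(FPKM + 0.5) with 4 group means and a mean-dependent prior, 2-sided, and were tested on simulated data. The labels number the libraries of each group 1 to 3 and the study took them from a cohort of mice, but no source used here states that each library is 1 animal, so p-values measure the spread between these libraries. Genes were named by rule: every member called, the 10 most abundant, those on the list of muscle potassium channels, low members called in the second fit, the 2 nearest on each side of the minimum, up to 8 with 1 group apart from the other 9 libraries, and called genes of the other lists. The members and lists were chosen with earlier results of these data known. Promoter windows are those of RefSeq (GRCm38.p6), found for 39 of 52 members. Alternatives were other pseudocounts, filters, scalings, priors and sets of libraries. Some genes that met the rule for naming are not reported here; they remain in the counts.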

Additional observations from a re-analysis of the deposited data

How the results depend on the processing

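Counts of called members moved by more than 1.5 times under few alternatives. In sedentary mice, 6 members became 3 with a minimum mean of 5 FPKM, where 11 members were tested, and 3 to 5 when 1 library was left out. The count was 3 without WT sedentary replicate 1, 2 or 3 in turn, with Kcng4 and Kcne1l in each. In trained mice, 7 became 3 with the 5 FPKM minimum, 4 when only the groups compared were fitted, and 4 to 7 when 1 library was left out, the lowest without strNrip1-/- trained replicate 2. With all libraries scaled to the same FPKM sum, 1 member was called for training in strNrip1-/- mice, Kcna7, among 150 of 12744 genes. Leaving out both WT trained replicate 2 and strNrip1-/- sedentary replicate 3, chosen after seeing the data, left 5 and 7 members called. The causes were not tested.

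Scaling moved the split of all called genes. Of 447 sedentary and 762 trained calls, 245 and 409 were higher as deposited. With the same FPKM sum it was 121 of 652 and 549 of 679, with the same sum of nuclear genes 397 of 480 and 466 of 615, and with the same fast-fiber sum 1651 of 1693 and 1943 of 2005. The median of all genes then shifted by -0.14 in sedentary mice with the same FPKM sum, and by 0.26 and 0.23 with the fast-fiber sum. Kcng4, Kcne1l and Kcnab1 were called in the same direction in both states under each of these scalings. Fitting only the groups compared left 166 and 445 genes called.

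Of 60 differences recomputed under the alternatives, 8 changed sign in at least 1 of them, and of these Cacnb1 in sedentary mice was a called one. With the fast-fiber sum, Cacnb1 was 0.01, Kcna7 in sedentary mice 0.15, and Kcnj11 0.08 and 0.01. Kcnc1 was -0.10 in sedentary mice with the same FPKM sum. In trained mice it was -0.01 after quantile normalization, -0.02 without both libraries named above and -0.02 to 0.04 when 1 library was left out. Kcnj8 in sedentary mice was -0.11 with the same FPKM sum and -0.03 to 0.13 when 1 library was left out (below 0 without WT sedentary replicate 1 or strNrip1-/- sedentary replicate 2). Kcnh2 in trained mice was -0.12 to 0.08 in such fits, above 0 without strNrip1-/- trained replicate 1.

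Replicate numbers are shared across groups. Libraries of the same number correlated by -0.10 to 0.24 in their deviations from the group means (18 pairs), those of other numbers by -0.25 to 0.20. Of the 12 libraries, 4 correlated best with their own number. No pairing by number was seen, but with so few pairs a weak one could be missed. With a replicate block, 6 and 6 members were called, and 0 for training and interaction. Depth limits what can be said of members under 0.5 FPKM, which for a 2-kb transcript is 16.5 to 24.1 fragments.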

Other observations

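Several tested members were called in no comparison. Kcnk2, a leak channel opened by stretch, ranged from 1.05 to 2.15 FPKM over the 12 libraries, Kcnk6 from 0.391 to 0.647 FPKM, and Kcnn2, a small-conductance calcium-activated channel, from 2.42 to 4.45 FPKM. Kcnu1, a relative of Kcnma1 known from sperm, ranged from 0.749 to 2.12 FPKM. Kcnk4 ranged from 0.363 to 1.92 FPKM, both ends among strNrip1-/- trained libraries, and shares exonic sequence with Catsperz (0.949 FPKM).

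Kcna1 and Kcna2, voltage-gated channels of myelinated axons, were detected at low levels, between 0.191 and 0.350 FPKM and between 0.180 and 0.424 FPKM. Among other low members, Kcnip2 and Kcnrg were listed at 0 in WT sedentary replicate 1, and Kcnmb4 in strNrip1-/- trained replicate 1. Their other libraries were above 0.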
